A study of Oryza sativa with 4 samples.

Results

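Plant homeodomain (PHD) finger genes near OsMADS2 binding regions are described here: OsPHD20, OsPHD35 and OsPHD40. They were chosen as the rows of the authors' table of merged peaks whose gene symbol holds OsPHD and a number, which gave 3 of 2589 genes and 3 of 1442 regions. The table holds 2862 pairs of a region and a gene, and each pair lies no more than 3999 bp apart. The choice rests on the binding data themselves, because a region enters that table only when overlapping peaks were called in all 3 peak lists. The presence of a peak in every list is therefore given by the choice, and the positions and fold enrichments below are a description with no test. OsPHD genes without a row in that table were not analysed here, so no OsPHD gene just outside it is given. The lowest fold of the 3 genes was 3.33, at OsPHD40 in IP5 over mock 5, against a smallest region fold of 2.00 in the same list.

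The study profiled OsMADS2 by chromatin immunoprecipitation and sequencing in wild-type TP309 rice panicles of 0.3 to 2 cm, which the labels call inflorescence meristem. It used 2 OsMADS2 immunoprecipitation libraries (IP5 and IP6) and 2 rabbit IgG mock libraries (mock 5 and mock 6), numbered by biological replicate and all from wild-type tissue, fixed in 1% formaldehyde and cut with micrococcal nuclease. Uniquely mapped reads numbered 9142837 in IP5, 15934402 in IP6, 13248694 in mock 5 and 16742118 in mock 6. The lists are IP5 over mock 5 (24169 peaks), IP5 over mock 6 (58213 peaks) and IP6 over mock 6 (10602 peaks), and only the first and the last share no library. Whole panicles were used, so a fold is an average over the cell types of a young panicle.

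A PHD finger is a small zinc-binding fold that many chromatin proteins carry. It is best known for reading the tail of histone H3, where different PHD fingers recognise methylated or unmodified lysine, and it thereby links a protein to active or silent chromatin. In plants, PHD-finger proteins are known in flowering time, vernalization and anther development. OsMADS2 is a PISTILLATA-like MADS-domain transcription factor, a class known for its part in lodicule and stamen identity in grasses. The sources used here give no more than the symbol and the identifier of each of the 3 genes, so no individual role is stated for them. No DNA or protein sequence of these genes or regions was used here, and the coordinates are printed as deposited, with a build not given in the sources used here.

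The 3 regions lay at different kinds of place, and OsPHD20 stood apart from the other two. Regions at OsPHD35 and OsPHD40 crossed the gene start, while the region assigned to OsPHD20 lay past the end of that gene. A region crossed the gene start in 2 of the 3 pairs, against 23.8% of all 2862 pairs (regions that cover a whole gene included), and it lay downstream of the gene in 29.2% of all pairs. Each gene had 1 region in the table, as did 90.2% of all its genes. With so few genes, these shares are printed for orientation, and nothing was tested.

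OsPHD20 (Os04g0425100) occupies chromosome 4 from 21001722 to 21010737 on the plus strand. Its region spans 21013047 to 21013762, a width of 716 bp, and begins 2309 bp beyond the gene's end. The same region is also assigned to Os04g0425800, a gene without a symbol that lies wholly within OsPHD20 on the opposite strand (21004392 to 21010335). Seen from that second gene, the region is 2711 bp upstream of the start. Position alone therefore places the region behind one gene and in front of the other, and the assignment to OsPHD20 cannot be told apart from an assignment to its antisense neighbour. The next region of the table was 304 kb away, so no other merged region lay on or close to this gene pair.

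OsPHD35 (Os07g0608400) occupies chromosome 7 from 25013549 to 25017774 on the plus strand. Its region spans 25013149 to 25013794 (646 bp), with 400 bp before the gene start and 246 bp inside the gene. The region also lies 567 bp downstream of OsPOP16 (Os07g0608300), which is read in the same direction. The next merged region was 25.4 kb away.

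OsPHD40 (Os11g0244800) occupies chromosome 11 from 7776681 to 7784137 on the minus strand. Its region spans 7783904 to 7784507 (604 bp), with 370 bp before the gene start and 234 bp inside the gene. This layout was close to that of OsPHD35, with region midpoints 68.5 bp before the start of OsPHD40 and 77.5 bp before the start of OsPHD35. The other gene assigned to the region, Os11g0244900, ends 1364 bp away and has no symbol. The next merged region was 93.7 kb away.

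All 3 genes were longer than the median gene of the table, which measured 2655 bp. OsPHD20 measured 9016 bp, and only 64 of the 2589 genes, itself included, were as long or longer. OsPHD40 measured 7457 bp and OsPHD35 4226 bp, with 122 and 680 genes as long or longer. The regions were also wider than the median region of 553 bp, and ranked 484, 577 and 638 of 1442 by width for OsPHD20, OsPHD35 and OsPHD40.

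**Figure D1:**
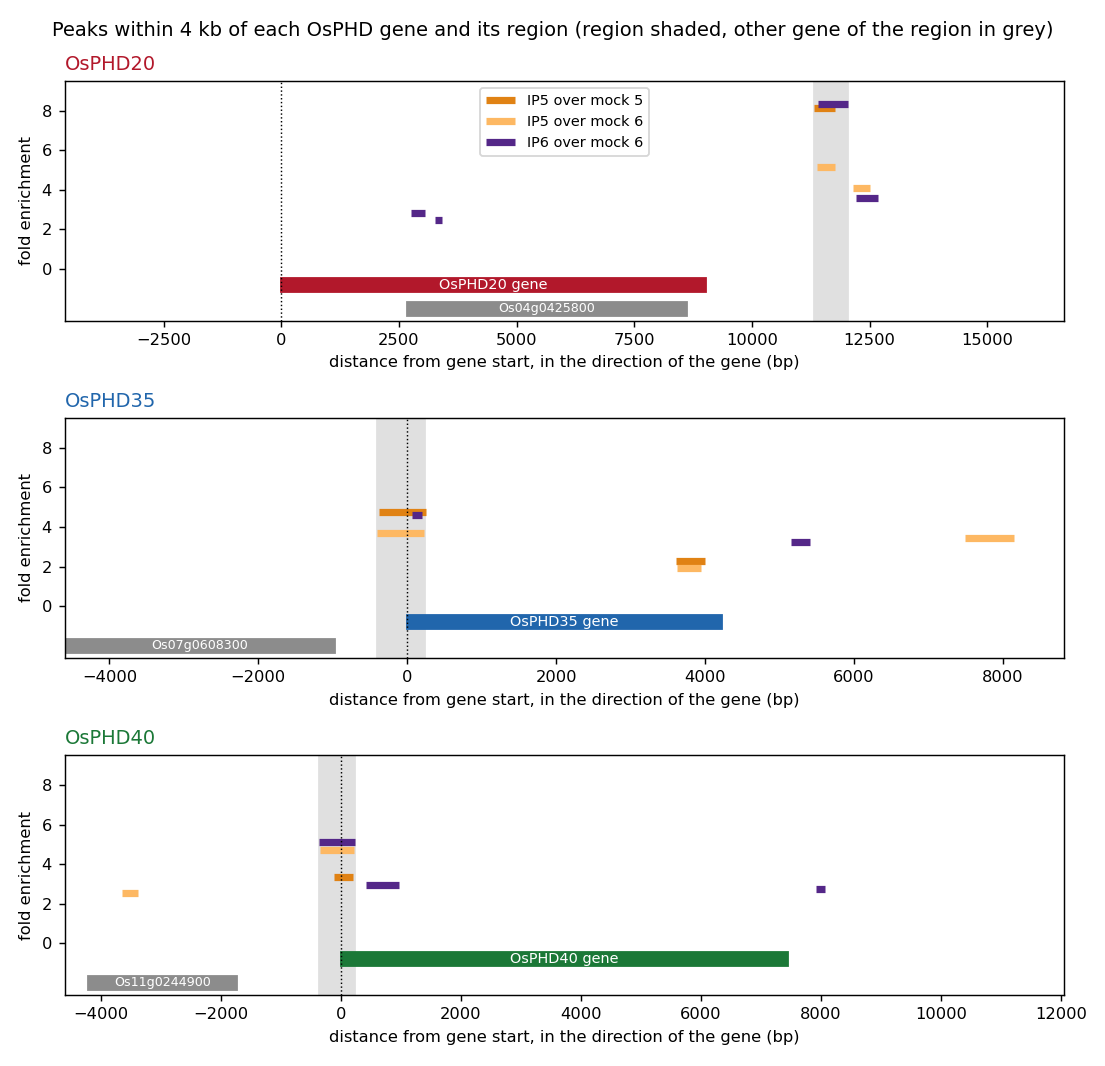
Peaks within 4000 bp of each OsPHD gene and its region, with distance from the gene start in the direction of the gene (bp) on the horizontal axis and the authors' fold enrichment on the vertical axis; each bar is 1 peak, coloured by list, and the coloured and grey boxes are the OsPHD gene and the other gene of the region. The shaded region crosses the start of OsPHD35 and OsPHD40 but lies 2309 bp past the end of OsPHD20, and each region holds 1 peak from each list.

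Fold enrichment is the authors' own value for each peak, with mock as the control. In each list 1 peak overlapped each region, so every fold below belongs to a single peak. Each value comes from 1 pair of libraries and carries no replicate error. Where 3 folds stand together without labels, IP5 over mock 5 comes first, IP5 against mock 6 second and IP6 over mock 6 last.

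The OsPHD20 region had a fold of 8.12 in IP5 over mock 5, 5.14 when mock 6 was the control, and 8.35 in IP6 over mock 6. Among the 1442 regions these values ranked 3, 134 and 5. It thus stood near the top in both calls that share no library, and lower, though still in the first 9.29% of regions, when IP5 was set against mock 6. The −log10 q of its peaks was 43.7, 28.8 and 52.1 in the same order. By q these peaks ranked 5 of 24169, 33 of 58213 and 38 of 10602 within their lists.

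The OsPHD35 region had folds of 4.75 and 3.69 for IP5, over mock 5 and mock 6 respectively, while IP6 over mock 6 gave 4.61. The ranks among all regions were 219, 820 and 108. Against mock 6, the region of the IP5 library thus lay just below the median region of that list, which had a fold of 3.82. In the other lists it was above the medians of 3.08 (IP6 over mock 6) and 3.31 (IP5 over mock 5). The −log10 q of its peaks was 16.1, 11.8 and 19.8.

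The OsPHD40 region had folds of 3.33 over mock 5 and 4.72 over mock 6 for IP5, while IP6 over mock 6 gave 5.13. It ranked 704, 251 and 48 among the regions, so its place ran from the middle of one list to the first 3.33% of another. In IP5 over mock 5 it lay barely above the median region (3.31). The −log10 q of its peaks was 10.4, 16.2 and 19.6.

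OsPHD20 had the highest fold of the 3 genes in every list. The order of the remaining pair was not stable: OsPHD35 was above OsPHD40 in IP5 over mock 5 (4.75 and 3.33) and below it in the lists made with mock 6 (3.69 and 4.72 for IP5, 4.61 and 5.13 for IP6). For the same IP5 library, their order thus differed between mock 5 and mock 6. The OsPHD20 fold was 8.12 over mock 5 and 5.14 over mock 6. The cause of these differences was not tested. All 3 regions were above the median region in IP6 over mock 6 and likewise in IP5 over mock 5, while 2 of 3 were above it in all lists, against 18.5% of all 1442 regions. The regions were chosen on the same peak calls, so nothing is read from that difference.

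**Figure D2:**
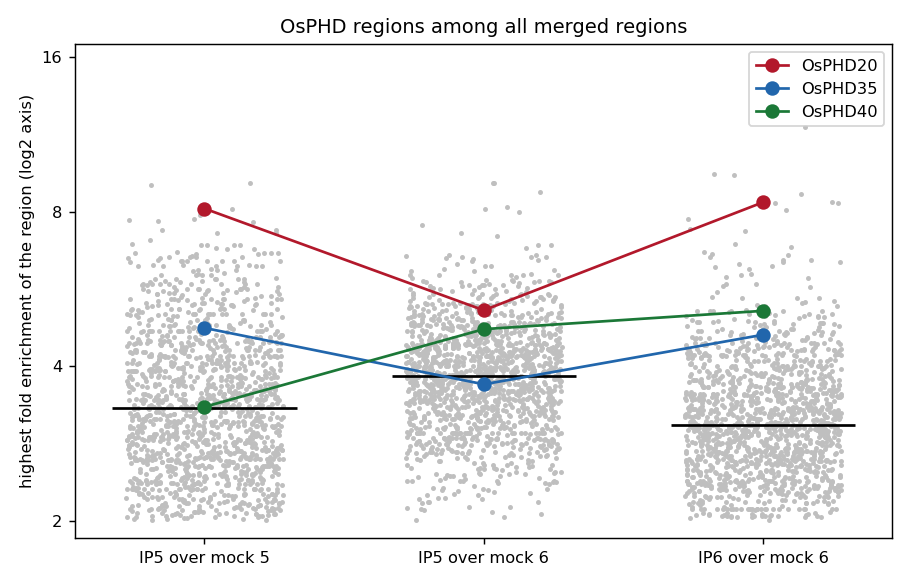
Highest fold enrichment of each merged region (log2 axis) in the 3 lists; grey points are all 1442 regions, black bars their medians, and coloured points joined by lines the OsPHD regions. OsPHD20 is highest of the 3 in every list (8.12, 5.14 and 8.35), and the lines of OsPHD35 and OsPHD40 cross between IP5 over mock 5 and IP5 over mock 6.

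The extent of the peaks differed between libraries. At OsPHD40 the peaks of all 3 lists crossed the gene start, from 120 bp before it to 210 bp past it in IP5 over mock 5, and they shared 331 bp (7783927 to 7784257). At OsPHD35 both IP5 peaks crossed the start and were 630 and 627 bp wide. The IP6 peak there was 132 bp wide and lay wholly inside the gene, 68 to 199 bp past the start. The stretch common to all lists at OsPHD35 is that IP6 peak (25013617 to 25013748), which takes up 20.4% of the merged region. The region crosses the gene start, therefore, through the IP5 peaks alone. At OsPHD20 the peaks shared 351 bp (21013132 to 21013482), or 49.0% of the region, and the IP6 peak ran on for a further stretch, to 21013762.

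Further peaks lay around the genes that were not part of any merged region. Within 4000 bp of a gene and its region, 11 such peaks were called: 6 in IP6 over mock 6, 4 with IP5 over mock 6 and 1 with IP5 over mock 5. The authors' sheet of shared peaks held 0 of these 11. Beside the OsPHD20 region, farther from the gene, a second peak occurred with IP5 over mock 6 (21013881 to 21014228, fold 4.11) and with IP6 over mock 6 (21013935 to 21014399, fold 3.62), but not in IP5 over mock 5. Those peaks overlap each other and begin 118 and 172 bp from the region. The lists that hold them share mock 6, and no list sets IP6 against mock 5. The cause of this difference was not tested.

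On the OsPHD20 gene itself, IP6 over mock 6 had peaks of fold 2.85 (2747 to 3049 bp past the start) and 2.49 (3278 to 3410 bp past the start). Both also lie on the antisense gene Os04g0425800. OsPHD40 had 1 further IP6 peak inside the gene, 419 to 971 bp past the start, with a fold of 2.96. It begins 185 bp from the region and is the closest of the further peaks on a gene. OsPHD35 had none on the gene in IP6, but carried a peak near its end in IP5 over mock 5 (25017164 to 25017548, fold 2.30) and at the same place in IP5 over mock 6 (fold 1.94).

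A further peak on the gene was thus found for 2 of the 3 genes in IP6 over mock 6 and for 1 in each IP5 list. Over all 2589 genes the shares were 24.0% in IP6 over mock 6, 25.7% with IP5 over mock 5 and 47.7% with IP5 over mock 6. These shares were not adjusted for gene length, and all 3 genes were longer than the median gene. Whether length bears on such peaks was not tested. The remaining peaks were off the genes. They lay 933 bp (IP6 over mock 6, fold 3.24) and 3271 bp (IP5 over mock 6, fold 3.46) past the end of OsPHD35, 458 bp past the end of OsPHD40 (IP6 over mock 6, fold 2.73), and 3376 bp before the start of OsPHD40 on Os11g0244900 (IP5 over mock 6, fold 2.54).

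Regions with the most similar set of folds were found by the Euclidean distance of log2 fold over the 3 lists. For OsPHD40 they lay across the start of OsPP44 (chromosome 3, folds of 3.25, 4.47 and 5.13 in the order used above) and of Os07g0591700 (3.27, 4.35 and 5.13), at distances of 0.09 and 0.12. For OsPHD35 they lay across the start of Os01g0593200 (4.69, 3.47 and 4.55, distance 0.09) and 18 bp downstream of OsC3H53, a CCCH zinc-finger gene (5.16, 3.72 and 4.67, distance 0.12). No region came as near to OsPHD20. Its closest were inside OsRLCK31 (6.40, 6.56 and 7.74, distance 0.50) and across the start of BTI-1 on chromosome 8 (6.40, 6.40 and 6.61, distance 0.58). The OsPP44 and BTI-1 regions each touch 2 genes. Neither neighbour of OsPHD20 shared its drop between the IP5 lists. Both had a lower fold in IP5 over mock 5 (6.40 each) and were chosen by closeness over all 3 lists. They therefore cannot show whether the drop is unusual. Several other regions with a high fold in IP5 over mock 5 were also lower over mock 6, while the highest region of that list was equal in both. Whether the drop at OsPHD20 stands out from other regions was not tested.

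Another PHD-finger gene was found under other symbols of the family. OsVIL2 (Os02g0152500, also listed as OsLC2 and OsVIL3), a VIN3-like PHD-finger gene, had a region 1410 bp upstream of its start (chromosome 2, 2883588 to 2883863). Its folds were 2.56 (IP5 over mock 5), 3.69 (IP5 against mock 6) and 2.71 (IP6 over mock 6), with ranks of 1141, 820 and 1008. It was therefore below the median region in every list, whereas each OsPHD gene was above it in at least 2. With OsVIL2 the table held 4 genes with a PHD-family symbol. The search used a set list of such symbols, so a PHD-finger gene under another symbol, or without one, was not counted.

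The gene ontology (GO) terms that the authors deposited as enriched split the 3 genes. Terms outside that set, which the genes may also carry, were not seen here. Of the 77 terms in the authors' deposited table, 7 held at least 1 of them and transcription cofactor activity was the 1 term that held all. In the authors' deposited table that term had 9 of its 32 genes near a region and a false discovery rate of 0.00212. OsPHD20 was otherwise listed under zinc ion binding alone (71 of 577 genes, 0.00464 in the authors' deposited table). OsPHD35 and OsPHD40 were not listed there, although a PHD finger binds zinc. In the authors' deposited table those 2 genes shared response to osmotic stress (46 of 350, 0.00692), nucleus (256 of 2529, 0.0195), response to salt stress (195 of 1912, 0.0311) and regulation of transcription (68 of 611, 0.0441). OsPHD35 alone was also listed under response to anoxia (16 of 96, 0.0148 in the authors' deposited table). These terms annotate the genes and do not measure them in these panicles. The method behind the rates is not given in those sources.

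The other 6 genes of the cofactor term, with 7 regions, had lower folds in IP6 over mock 6, from 2.56 to 4.10, than any of the OsPHD genes (4.61 to 8.35). The order differed in IP5 over mock 5, where their folds ran from 2.62 to 5.41, with a median of 4.19, and OsPHD40 (3.33) was above just 1 of the 7 regions. In IP5 over mock 6 their folds ran from 2.57 to 5.08, also with a median of 4.19. There OsPHD35 (3.69) was below that median, while OsPHD40 (4.72) and OsPHD20 (5.14) were above it. OsMED15_2, which encodes a subunit of the Mediator complex that links transcription factors to RNA polymerase, had folds of 4.19, 4.19 and 3.65 across its start. OsCBT, a calmodulin-binding transcription factor gene, had 3.69, 2.57 and 2.85, also across the start. OsBT had 5.41, 4.93 and 2.996 in a region 3151 bp upstream.

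The remaining 3 have no symbol. Os03g0818300 had 2 regions, one across its start (2.62, 4.54 and 3.96) and one 2299 bp upstream (3.84, 5.08 and 4.10). Os01g0893400 had 4.47, 3.83 and 2.60, in a region 3150 bp upstream. Os07g0623100 had 5.14, 3.81 and 2.56, in a region 812 bp downstream. Both were lower than every OsPHD gene in IP6 over mock 6, but higher than OsPHD40 in IP5 over mock 5. Over the 7 regions, 2 were above the median region in all 3 lists, beside 18.5% of all 1442 regions.

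Genes of other chromatin families were counted by symbol, with families chosen after the table was seen. They numbered 11 genes with 13 regions from 7 families. Of the 13 regions, 5 crossed a gene start, one of them by covering its whole gene, beside 23.8% of all 2862 pairs. Their median folds were 3.43, 3.91 and 2.996, beside 3.31, 3.82 and 3.08 over all regions. In all 3 lists, 4 of 13 regions were above the median, beside 18.5% of all 1442 regions. With so few regions, nothing is read from these counts. OsSDG714, a SET-domain gene of the histone H3 lysine methyltransferases, had the highest fold of them in IP6. It had folds of 5.29, 4.92 and 6.58 in a region 814 bp downstream and 2.63, 3.59 and 2.92 in a second region across its start. The stronger of its regions, like the region of OsPHD20, lay past the gene's end, as did the region in 29.2% of all 2862 pairs.

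The next by IP6 fold was HMGB1, a gene for an HMG-box protein of chromatin, which its region covered whole (3.92, 4.84 and 4.78). OsMBD717, of the methyl-CpG-binding domain family, had 3.67, 5.06 and 4.55 inside the gene. OsPRMT6a, a protein arginine methyltransferase gene, had 3.43, 4.06 and 4.00 across its start. OsDDM1b, of the DDM1 nucleosome remodelers that maintain DNA methylation, had 3.53, 3.57 and 3.53 in a region 1984 bp upstream and 3.05, 3.73 and 2.32 in another across its start. None of the 13 regions reached the folds of OsPHD20 in the calls that share no library. In IP5 over mock 6 the region of OsDRM3, of the DRM family of DNA methyltransferases, was higher than OsPHD20 (6.02 against 5.14), while in IP5 over mock 5 it had 2.22.

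**Figure D3:**
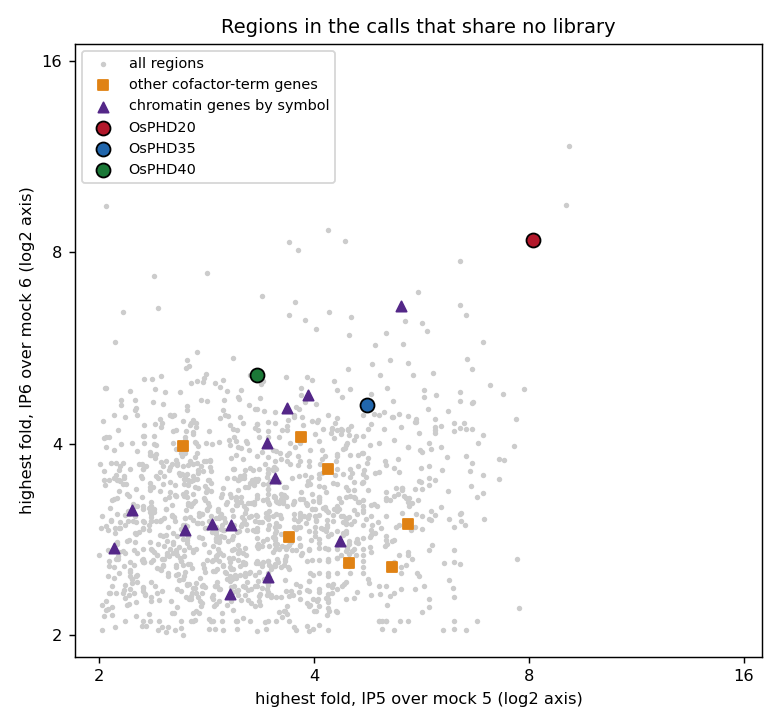
Highest fold of each merged region, with IP5 over mock 5 on the horizontal and IP6 over mock 6 on the vertical axis, both on log2 axes; grey points are all 1442 regions, squares the 7 regions of the other cofactor-term genes, triangles the 13 regions of the chromatin genes, and large circles the OsPHD regions. OsPHD20 (8.12 and 8.35) lies at the upper right with few regions around it, while OsPHD35 and OsPHD40 lie above every square on the vertical axis (4.61 and 5.13).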

How the data were processed

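The authors deposited read counts per library, 3 peak lists and a table of merged regions with nearby genes. MACS2, Bowtie2, fastp, deepTools and SAMtools were used, per the submitters' processing notes, in versions not stated there. Per the file headers, each list compares 1 IP with 1 mock library, peaks were not pooled, and peaks overlapping in all 3 lists were merged and assigned to genes. Each deposited peak has a fold enrichment (a ratio) and −log10 of p and q by the authors' peak caller. The authors also deposited GO terms with the −log10 of a false discovery rate and a gene count.

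Here, a list's peaks were matched to a region by an overlap of at least 1 bp, and the highest fold was taken. Coordinates are as deposited. Distances from gene starts follow the gene's strand. The matching was tested on simulated data. The 2 deposited copies of the gene table had the same regions and genes in all 2862 rows. No test was made, because the members were chosen from the same peak calls. Members and lists were chosen with earlier results of these data known. The rule for named genes took the 3 members, the other genes of their regions, PHD-family symbols, the cofactor term, the 2 most similar regions per member and the 5 chromatin genes of highest IP6 fold. OsDRM3 was named after its values were seen. The rule's chromatin words matched gene descriptions, which the table lacks, so 9 symbol families were used instead (2 had no gene). In a RefSeq gene table of another assembly, 0 of the 3 identifiers and 0 of the 3 symbols were found. Python 3.11.15, numpy 2.4.6, pandas 2.3.3 and matplotlib 3.10.9 were used.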

Additional observations from a re-analysis of the deposited data

How the results depend on the processing

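No paired analysis was possible because the results come from no test; the lists of IP5 over mock 5 and of IP6 over mock 6 already set each IP against the mock of its number. The 4 planned peak settings were the peak of smallest q, at least 50% of a peak within the region, q of 0.01 or less, and peaks of the authors' shared sheet alone. They could not change the 9 folds of the OsPHD regions, since each region holds 1 peak per list, which meets all of them, so the equal values say nothing of stability. With mock 6 in place of mock 5 for IP5, an alternative chosen after seeing the data, the fold went from 8.12 to 5.14 at OsPHD20, from 4.75 to 3.69 at OsPHD35 and from 3.33 to 4.72 at OsPHD40. The cause was not tested. The number of OsPHD regions above the median region, 2 with all lists, was 3 with replicate 5 left out and 3 with replicate 6 left out, since each leaves a single list. By midpoint, 2 regions lay before the gene start, the same number that crossed it. These are midpoints of merged regions, and the IP6 peak at OsPHD35 lay wholly inside the gene. With only symbols that contain PHD, also chosen after seeing the data, 3 genes were counted in place of 4. Counting PHD in gene descriptions was not run, as the table has none. IP5 had the fewest unique reads (9142837), and the lists give no counts per peak, so no counting interval can be set on a fold.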

Other observations

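Many regions shared a fold exactly, to every deposited digit. In IP5 over mock 5, 731 of the 1442 regions (50.7%) had a highest fold that at least 1 other region also had, and the regions held 952 distinct values. The share was 43.8% in IP6 over mock 6, and 48.5% with IP5 over mock 6. The OsPHD35 fold of 3.69 in IP5 over mock 6 was carried by 4 regions, the OsVIL2 region among them. In IP5 over mock 5 the folds of OsPHD35 and OsPHD40 were each carried by 2 regions, while no OsPHD20 fold was shared. The ranks of OsPHD35 in both IP5 lists and of OsPHD40 in IP5 over mock 5 therefore include ties. Their folds in IP6 over mock 6, and that of OsPHD40 in IP5 over mock 6, were not shared.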
